A study of Mus musculus with 12 samples.

Results

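Kdm3a knock-down F9 cells were compared before and after a full course of differentiation. F9 is a mouse teratocarcinoma line whose stem cells turn into endoderm when given retinoic acid. The knock-down samples carry pRS-kdm3a in their names and are labelled as having reduced Kdm3a expression. The members are the 2 arrays of untreated knock-down cells (0 h) and the 2 arrays of knock-down cells after the endpoint treatment (6 d), so 4 of the 12 arrays in the series, chosen by their sample names. The endpoint treatment was 3 days of retinoic acid followed by 3 days of retinoic acid together with cAMP. A further 2 knock-down arrays were taken after 3 days of retinoic acid alone (72 h). Control F9 cells, labelled as wild type for Kdm3a expression, were sampled at the same stages, with 2 arrays each. Whether the knock-down cells are a single clone or a pool is not stated in the labels. The labels call the samples biological replicates without saying that they came from separate cultures. The p-values therefore measure the spread between replicate arrays, pooled over all 6 groups of the series, which may be technical.

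F9 differentiation is a model of the extra-embryonic endoderm of the early mouse embryo. Retinoic acid binds nuclear receptors and drives the stem cells toward primitive endoderm, and added cAMP moves them on to parietal endoderm, a migratory cell layer that secretes a thick basement membrane. Kdm3a encodes an enzyme that removes methyl groups from lysine 9 of histone H3, a mark of repressed chromatin. The question here is what the knock-down cells gained and lost over the whole course, and where that net change differed from the one in control cells.

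Expression is given as normalized log2 intensity, an array brightness after background correction, so a difference of 1 is a doubling. A gene rose or fell where limma's test over 11621 genes gave an adjusted p under 0.05. Where both arrays of a group failed to detect a gene, only a bound can be given, written as "at least" a number of times. In such bulk RNA, fewer cells expressing a gene and less of its RNA per cell cannot be told apart. On the 4 arrays, 15204 to 17342 of 45281 probes were detected (33.6% to 38.3%), and raw median intensities ran from 131.3 to 216.3. Replicate arrays correlated at 0.977 at 0 h and 0.949 at 6 d. Knock-down 0 h replicate 2, knock-down 6 d replicate 2 and control 6 d replicate 2 resembled each other in the faint signal of undetected probes, with rank correlations of 0.395 to 0.427 against 0.243 to 0.341 for the other pairs of 0 h and 6 d arrays. The change between the replicate 1 arrays lies outside that set of 3 arrays and the change between the replicate 2 arrays lies inside it, and both are given where they part.

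Kdm3a itself was measured first as a check of the labels. In knock-down cells its level was 8.93 and 8.88 before treatment and 7.76 and 7.53 after 6 d. In control cells it was 9.97 and 9.98 before treatment and 9.29 and 9.12 after 6 d. Every knock-down array was below every control array of its stage. Over the course the knock-down cells lost a further 1.26 on the log2 scale (SE 0.19, limma adjusted p = 8.95e-04), and the value at 72 h was 8.17 and 8.06. The array carries 4 probes for this gene; 3 of them, each detected on every one of the 12 arrays, fell by 1.26, 1.25 and 1.37, while the fourth was detected on 0 arrays. The comparison therefore runs between stages whose Kdm3a level also differs.

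Every array at 72 h and 6 d came from treated cells, so treatment and time in culture cannot be told apart. From 0 h to 6 d the expression of 2596 genes changed in the knock-down cells, 22.3% of those tested. Of these, 1408 rose (12.1%) and 1188 fell (10.2%), and the median change of all genes was -0.03. With each array centred on its median in place of quantile normalization, that median was 0.15, and 1725 genes rose and 503 fell, so 77.4% of the calls were rises against 54.2%. Of the 159 called genes named by the rule, 16 lost their call under that centring: the division genes Bub1b, Cdc20, Mcm5, Mcm6 and Mcm7, the marker genes Ddx4, Dnd1, Stmn2, Tex14, Tfap2c and Oasl2, the sterol genes Dhcr7 and Msmo1, and Pkp2, Trim28 and Uhrf1. Of 19 called genes named outside the rule, 5 lost theirs: Bmp6, Cdkn1c, Hoxb3, Hoxc13 and Mest. The olfactory receptor gene Olfr961, described below and also called and named outside the rule, is not among these 19. It is not in the later counts of lost calls either. By the fitted change, which for undetected genes depends on the background setting, 337 genes rose at least 4-fold and 120 fell as much, 62 rose and 3 fell at least 16-fold (Slc27a2, Bmp4 and Enox1), and 26 rose and 1 fell at least 32-fold (Slc27a2). In all 2596 genes the 6 d arrays lay wholly above or below the 0 h arrays, as they did in 6352 genes tested (54.7%). Of 592 genes that were undetected at 0 h and detected on both 6 d arrays, 425 passed as rises, and of 216 genes that went the other way 154 passed as falls. The count of 2596 was 1573 without knock-down 0 h replicate 1, 1562 without knock-down 0 h replicate 2, 2176 without knock-down 6 d replicate 1 and 2889 without knock-down 6 d replicate 2.

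By the fitted change, the rise of Cyp26a1, which encodes the cytochrome P450 that breaks down retinoic acid, topped those of the genes named by the rule. Where genes were undetected at 0 h, this order depends in part on background. Its level was 4.69 and 4.82 at 0 h and 13.17 and 11.83 at 6 d, a rise of at least 114-fold from an undetected start (limma adjusted p = 8.62e-07). Plat, the tissue plasminogen activator of parietal endoderm, went from 4.63 and 4.72 to 12.21 and 11.11 (at least 63.6-fold, adjusted p = 6.56e-07). Aqp8, a water channel, went from 5.85 and 4.80 to 12.21 and 11.96 (log2 change 6.76, SE 0.41, adjusted p = 1.62e-06). The next in order were Hoxa5 (at least 51.2-fold), the collagen chain gene Col4a2 (6.50) and Hs3st1, a heparan sulfate sulfotransferase, with 6.70 and 6.84 at 0 h and 13.15 and 12.83 at 6 d (log2 change 6.22, SE 0.27, adjusted p = 2.85e-07). In each of these 6 genes both 6 d arrays stood far above both 0 h arrays. Acta2, smooth muscle actin, rose at least 52.5-fold, Bmper, a secreted binder of BMP ligands, at least 39.3-fold, Glipr1 at least 41.6-fold, Drp2, a dystrophin-related protein, at least 40.9-fold, and Hkdc1, a hexokinase-like enzyme, at least 33.7-fold. Defa20, an alpha-defensin, rose at least 37.1-fold, from 4.72 and 5.46 to 10.96 and 10.81. The alpha-defensins are a family of near-identical copies, so this probe may report another member.

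**Figure D1:**
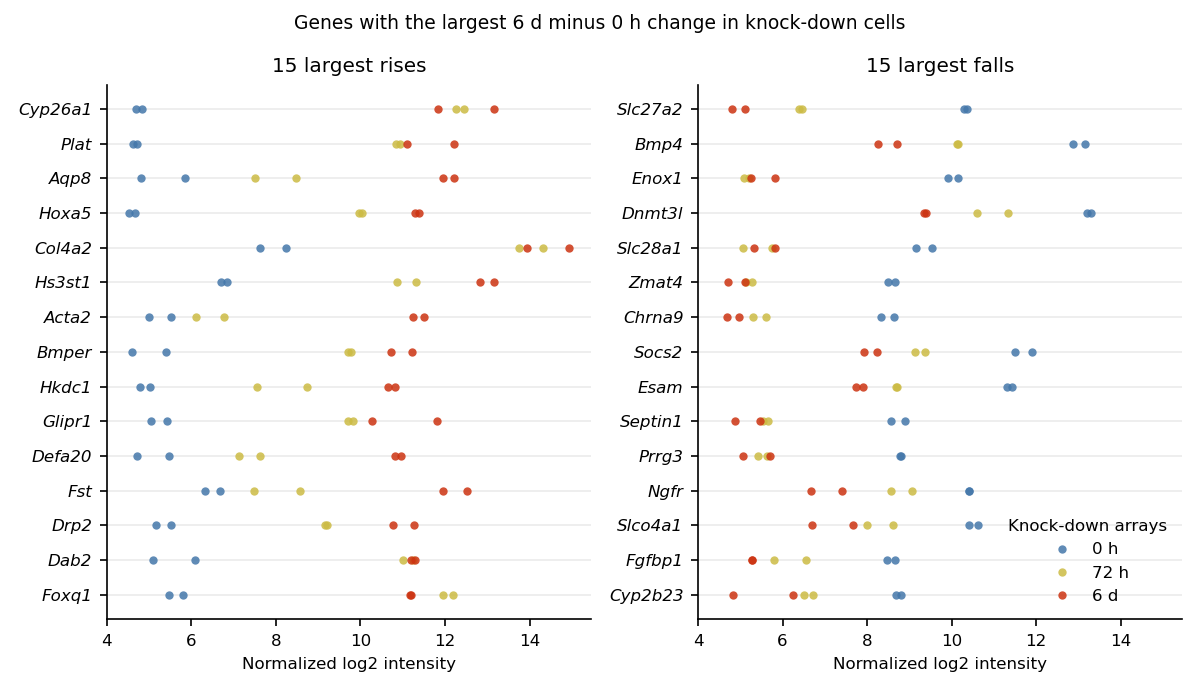
Normalized log2 intensity of the 15 genes with the largest rise and the 15 with the largest fall from 0 h to 6 d in knock-down cells, 1 point per array, with the 72 h arrays shown between. In every row the 6 d points lie apart from the 0 h points, and the replicate arrays lie closer to each other than to the other stage. Cyp26a1 and Foxq1 were close to their 6 d level or above it by 72 h, while Acta2, Aqp8 and Fst were still well below their 6 d level.

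The fall of Slc27a2, a fatty acid transporter and acyl-CoA synthetase, was the largest of all genes named. Its level was 10.36 and 10.28 at 0 h and 4.79 and 5.11 at 6 d, where it was undetected, a fall of at least 28.0-fold (limma adjusted p = 1.26e-07). Bmp4, a secreted growth factor, went from 12.88 and 13.15 to 8.27 and 8.69 (log2 change -4.54, SE 0.21, adjusted p = 4.41e-07) and was still detected at the end. Enox1, a cell surface oxidase, went from 9.92 and 10.16 to 5.25 and 5.82 (log2 change -4.51, SE 0.25). Dnmt3l, the cofactor of the de novo DNA methyltransferases, had 13.20 and 13.30 at 0 h and 9.34 and 9.39 at 6 d (log2 change -3.88, SE 0.25, adjusted p = 2.79e-06). These genes shared high, closely matched values on both 0 h arrays. The nucleoside transporter gene Slc28a1 (-3.77), the cytokine signalling suppressor Socs2 (-3.61), the endothelial adhesion molecule Esam (-3.56), Prrg3 (-3.40), the neurotrophin receptor Ngfr (-3.38), the organic anion transporter Slco4a1 (-3.33) and Cyp2b23 (-3.21), one of a family of similar P450 genes whose probes may cross-react, fell as well, and so did Zmat4 (at least 8.41-fold), Chrna9, a nicotinic receptor subunit (at least 7.86-fold), Septin1 (at least 9.36-fold) and Fgfbp1, an FGF carrier protein (at least 8.28-fold). Each of the 30 genes with the largest changes kept its call when any of the 4 arrays was left out.

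Regulators of primitive endoderm rose, with 1 exception among those tested, Hnf4a, which did not pass (0.33). Of 10 list members 9 were on the array, and all 9 passed the filter on low values. Of these, 8 rose and 0 fell, with a median log2 change of 4.93 against -0.03 over all genes. At 0 h 4 of the 9 were undetected, so that median depends in part on background. Counts in this and later lists stand against 22.3% of all genes called, 12.1% as rises and 10.2% as falls. Gata6, a zinc finger factor that sets primitive endoderm fate, went from 7.30 and 6.79 to 11.96 and 12.42 (log2 change 5.14, SE 0.24, limma adjusted p = 4.41e-07). Sox17, a factor of endoderm, went from 4.62 and 4.85 to 9.23 and 10.09 (at least 16-fold, adjusted p = 1.05e-06). Sox17 was undetected on both 0 h arrays, and Gata6 was detected on both, so only Gata6 has a measured start. Pdgfra, the growth factor receptor that marks this lineage, went from 4.95 and 4.82 to 10.75 and 10.10 (at least 27.1-fold). Dab2, an endocytic adaptor needed for endoderm sorting, had 6.09 and 5.10 at 0 h and 11.19 and 11.30 at 6 d (log2 change 5.65, SE 0.28). The forkhead gene Foxq1 went from 5.46 and 5.81 to 11.18 and 11.21 (log2 change 5.55, SE 0.22). A second forkhead factor, Foxa2, was weaker, with 4.75 and 4.80 at 0 h and 7.35 and 7.69 at 6 d (at least 3.61-fold). At 72 h the levels of these genes were already 11.82 and 11.83 for Gata6, 11.02 and 11.24 for Dab2 and 12.19 and 11.95 for Foxq1. The 72 h arrays are shared by both intervals of the course, so the changes before and after 72 h are given only side by side: 4.78 and 0.37 for Gata6 and 6.43 and -0.88 for Foxq1.

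Genes of the basement membrane split into a group that rose and a group that did not pass the test. Of 14 members, all tested, 7 rose and 0 fell (50% called, against 22.3% of all genes), with a median log2 change of 1.53. Col4a1 and Col4a2 encode the collagen IV chains that form the network of the membrane. Col4a1 went from 9.66 and 9.19 to 15.22 and 14.49 (log2 change 5.43, SE 0.29, limma adjusted p = 8.62e-07), and Col4a2 from 8.25 and 7.62 to 14.93 and 13.95 (log2 change 6.50, SE 0.37, adjusted p = 1.05e-06). Replicate 1 was the higher array of both genes at 0 h and at 6 d. Lamb1, a laminin beta chain, went from 4.70 and 5.73 to 10.34 and 9.97 (at least 22.4-fold), and Lama1, its alpha partner, from 11.45 and 11.08 to 15.18 and 14.56 (log2 change 3.61, SE 0.29). Nid1, which links laminin to collagen IV, went from 8.39 and 7.42 to 11.64 and 10.41 (log2 change 3.12, SE 0.48), and Sparc, a matrix protein that binds collagen, from 12.33 and 11.68 to 14.68 and 13.75 (log2 change 2.21, SE 0.40). Lamc1, the gamma chain of the same laminin, also rose, and the 7 members that did not pass included Nid2 (-1.08) and Fn1 (0.76), named after their values were seen. The list's median was 1.96 between the replicate 1 arrays and 1.12 between the replicate 2 arrays. The count of rises was 7 to 10 over the fits that left out 1 array, and 10 without knock-down 6 d replicate 2 or without the 3 arrays that resemble each other, while Col18a1, Lama5 and Nid2 passed as falls without knock-down 6 d replicate 1.

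Col4a1 and Col4a2 rose together and lie head to head, so their promoter sequences are shown (RefSeq, build GRCm38.p6, 250 bases before and 50 after each start, in the gene's own direction). Their start sites are 21 bases apart on opposite strands with no other annotated gene between, and the 2 windows share 78 bases. Each gene runs across the start of the other, so their first bases overlap and no gap lies between them. The bases before each start thus lie within the other gene. Capitals mark the GC box, GGGCGG on either strand, a common element of promoters. The Col4a1 window is chr8:11312777-11313076 on the minus strand and the Col4a2 window is chr8:11312555-11312854 on the plus strand.
Col4a1: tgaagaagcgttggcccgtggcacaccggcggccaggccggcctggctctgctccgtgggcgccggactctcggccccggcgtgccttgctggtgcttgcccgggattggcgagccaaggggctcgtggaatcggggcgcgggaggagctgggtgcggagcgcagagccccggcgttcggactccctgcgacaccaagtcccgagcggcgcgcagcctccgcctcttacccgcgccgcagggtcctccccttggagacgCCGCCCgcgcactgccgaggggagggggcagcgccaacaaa
Col4a2: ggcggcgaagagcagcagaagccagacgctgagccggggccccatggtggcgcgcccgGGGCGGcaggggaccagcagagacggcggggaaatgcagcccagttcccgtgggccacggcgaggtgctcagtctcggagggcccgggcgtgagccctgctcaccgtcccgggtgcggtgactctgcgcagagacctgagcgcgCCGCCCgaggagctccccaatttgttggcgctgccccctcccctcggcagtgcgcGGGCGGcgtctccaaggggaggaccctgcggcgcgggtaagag
A GC box occurs 1 time in the Col4a1 window and 3 times in the Col4a2 window. The Col4a1 box lies in the shared bases and is the same site as the last of the Col4a2 boxes. Of 32851 promoters of this length, 35.7% hold at least 1. On either strand the cAMP response element TGACGTCA (1.79% of promoters), the GATA letters AGATAA (11.2%) and the nuclear receptor recognition letters AGGTCA (16.3%) were searched as well, and none of these letters occurs in either window. Such a match, or its lack, describes the letters and says nothing of binding.

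Enzymes that modify and fold collagen also rose. Of 13 members, all tested, 7 rose and 0 fell, with a median log2 change of 1.17. P4ha2, a collagen prolyl hydroxylase subunit, went from 7.42 and 7.32 to 13.30 and 12.40 (log2 change 5.48, SE 0.35, limma adjusted p = 2.40e-06). Serpinh1, the collagen chaperone of the endoplasmic reticulum, started at 12.39 and 11.91 (log2 change 2.51, SE 0.31), and P4ha1 went from 7.65 and 7.84 to 9.69 and 9.78 (log2 change 1.99, SE 0.33). P3h2, a prolyl 3-hydroxylase, was undetected at 0 h and rose at least 4.24-fold. The smaller rises of Plod3, a lysyl hydroxylase (1.28), and Crtap, a hydroxylase partner (1.17), depended on the arrays: the call of Plod3 was lost (limma adjusted p in brackets here and below) without 0 h replicate 2 (0.0768) or 6 d replicate 1 (0.0733), and that of Crtap without 0 h replicate 1 (0.0661), 0 h replicate 2 (0.174) or 6 d replicate 1 (0.184). A second Plod3 probe moved the opposite way. The list had 4 rises without knock-down 0 h replicate 2 or knock-down 6 d replicate 1, 5 without knock-down 0 h replicate 1 and 11 without knock-down 6 d replicate 2.

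Chaperones of the endoplasmic reticulum, which fold secreted proteins in general, moved less. Of 16 members 15 were on the array and 13 passed the filter. Of these, 4 rose and 0 fell (30.8% called, against 22.3% of all genes), with a median log2 change of 0.47. Dnajc3, an Hsp40 co-chaperone, went from 7.65 and 7.90 to 9.53 and 8.65 (log2 change 1.31, SE 0.37, limma adjusted p = 0.0272). Txndc5 (1.07), Pdia6 (1.02) and Erp29 (0.99), all related to protein disulfide isomerases, passed with changes of similar size, and a second Pdia6 probe had the opposite sign. In all 4 genes replicate 1 was the higher of the 6 d arrays. The list had 0 rises without knock-down 0 h replicate 1, without knock-down 0 h replicate 2 or without knock-down 6 d replicate 1, and 5 without knock-down 6 d replicate 2; Dnajc3, for example, was lost without 0 h replicate 1 (0.127), 0 h replicate 2 (0.0719) or 6 d replicate 1 (0.161).

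Genes of late parietal endoderm rose in most cases. Of 11 members, all tested, 8 rose and 0 fell, with a median log2 change of 4.39. At 0 h 7 of the 11 were undetected. Such genes had little room to fall, and the median depends in part on their background values. The members that did not pass were Krt7 (1.22), Snai2 (-0.74) and Vim (0.17), all named after their values were seen. Plat is described above. Fst, which encodes the activin antagonist follistatin, went from 6.67 and 6.32 through 7.47 and 8.58 at 72 h to 12.52 and 11.96 (log2 change over the course 5.74, SE 0.35, limma adjusted p = 1.62e-06). Pth1r, the receptor of parathyroid hormone and its related peptide, went from 5.02 and 4.92 through 6.93 and 7.50 to 10.27 and 9.81 (at least 20.8-fold, adjusted p = 5.95e-06). The change of Fst was 1.53 before 72 h and 4.22 after it, and that of Pth1r after 72 h was 2.83, with no exact value before it because Pth1r was undetected at 0 h. Plat changed by 0.76 after 72 h. The keratins of simple epithelium rose, with Krt18 going from 4.83 and 5.03 to 10.85 and 9.02 (at least 19.3-fold) and Krt19 from 4.84 and 4.65 to 9.25 and 9.01 (at least 11.0-fold). The 6 d arrays of Krt18 lay far apart, replicate 1 being the higher. Snai1, a repressor of epithelial genes that acts in cell migration, went from 5.11 and 4.67 to 9.35 and 10.34 (at least 18.1-fold).

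**Figure D2:**
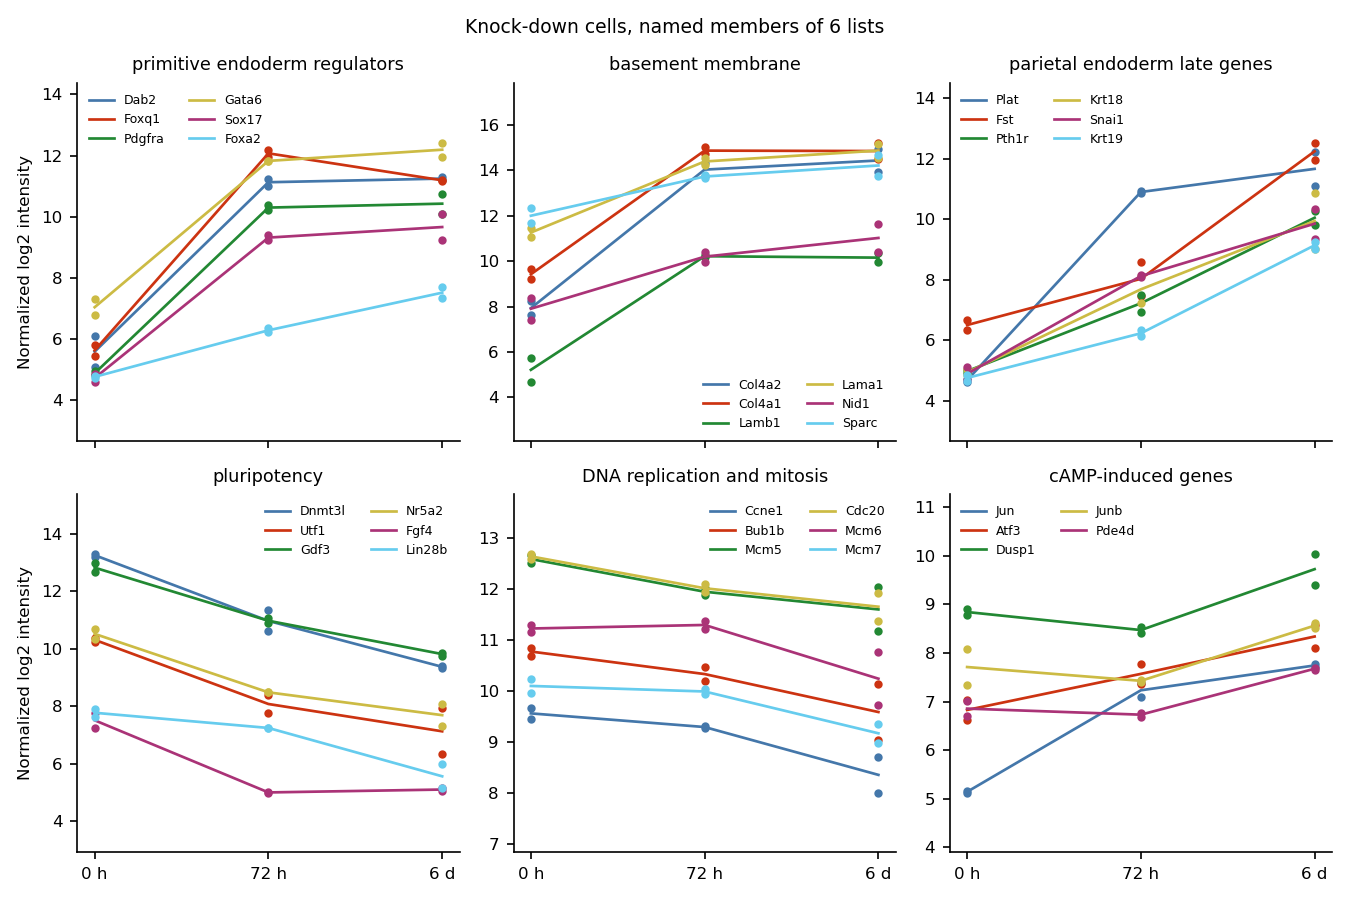
Normalized log2 intensity of named members of 6 lists in knock-down cells at 0 h, 72 h and 6 d, 1 point per array and lines through the means, each panel with its own vertical scale. Gata6 and Col4a1 reached their plateau by 72 h and Foxq1 was highest at 72 h, whereas Fst rose by 4.22 after 72 h. Dnmt3l and Gdf3 fell in both intervals, and the 6 d points of Cdc20, Bub1b and Mcm6 lie further apart than their 0 h points.

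Genes of visceral endoderm, the alternative fate that cAMP does not favour, also moved. Of 17 members, all on the array, 10 passed the filter, 7 rose and 1 fell, with a median log2 change of 1.74. At 0 h 5 of the 10 were undetected, so the median depends in part on background. Cited1, a transcriptional co-regulator, went from 5.16 and 4.93 to 8.96 and 9.26 (at least 10.9-fold, limma adjusted p = 1.15e-06). Lrp2, or megalin, an endocytic receptor, went from 6.65 and 5.98 through 11.19 and 10.66 at 72 h to 10.13 and 9.02 (log2 change 3.26, SE 0.39). Its partner Cubn, or cubilin, also rose, with 4.57 and 5.32, 8.17 and 8.77 and 8.53 and 7.17 (at least 4.54-fold from 0 h). For both receptors replicate 1 was the higher 6 d array by a wide margin. The 6 d arrays of Lrp2 lay below those of 72 h, while those of Cubn overlapped them. The change after 72 h was -1.35 for Lrp2 and -0.62 for Cubn, and neither passed (limma adjusted p of 0.0840 and 0.484). Amn, which anchors cubilin in the membrane (1.91), and Ihh, the Indian hedgehog ligand (at least 1.95-fold), passed, but the call of Amn was lost without 0 h replicate 1 (0.0535) and that of Ihh without 0 h replicate 1 (0.0510) or 6 d replicate 1 (0.0586). Apoe, the lipid carrier apolipoprotein E, went down, from 11.31 and 10.77 to 8.28 and 8.22 (log2 change -2.79, SE 0.35, adjusted p = 2.40e-04).

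Genes of the retinoic acid response made up the next group. Of 26 members 23 were on the array and 19 passed the filter, 11 rose and 1 fell, with a median log2 change of 2.19. At 0 h 10 of the 19 were undetected, so the median depends in part on background. Tgm2, a transglutaminase induced by retinoic acid, went from 5.61 and 6.46 to 9.63 and 10.38 (log2 change 3.97, SE 0.44, limma adjusted p = 1.01e-04). The homeobox cofactors Meis2 and Meis1 went from 6.26 and 5.24 to 9.56 and 9.59 (log2 change 3.82, SE 0.31) and from 6.95 and 6.49 to 10.23 and 10.26 (log2 change 3.52, SE 0.22). In all 3 genes the 6 d arrays stood clear of the 0 h arrays. Rarb, the retinoic acid receptor that is itself a target of its ligand, rose at least 7.29-fold, with 4.84 and 5.09 at 0 h and 8.32 and 8.74 at 6 d. Stra6, the transporter of retinol, rose at least 7.79-fold, and its 6 d arrays were 9.34 and 7.92. Crabp2, which carries retinoic acid to its receptors, went from 5.41 and 5.80 through 9.17 and 9.11 at 72 h to 8.35 and 8.16 (log2 change over the course 2.65, SE 0.22, adjusted p = 1.48e-05). The 1 member that fell, named for that reason, was the receptor gene Rarg, from 9.07 and 8.87 to 7.40 and 7.92 (log2 change -1.31, SE 0.22).

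The Cyp26a1 promoter is shown because this gene had the largest fitted rise of the genes named by the rule. Its window is chr19:37697558-37697857, plus strand (RefSeq, build GRCm38.p6, 250 bases before and 50 after the start). Capitals mark GC boxes and a direct repeat of AGTTCA with 5 bases between its copies, the spacing at which retinoic acid receptors are known to bind.
Cyp26a1: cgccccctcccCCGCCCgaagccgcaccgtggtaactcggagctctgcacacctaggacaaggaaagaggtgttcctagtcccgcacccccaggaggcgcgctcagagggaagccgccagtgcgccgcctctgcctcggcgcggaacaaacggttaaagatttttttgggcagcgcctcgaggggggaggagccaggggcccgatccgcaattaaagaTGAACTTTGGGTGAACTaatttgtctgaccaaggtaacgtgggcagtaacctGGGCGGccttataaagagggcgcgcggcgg
The repeat lies on the reverse strand and begins 32 bases before the start of the gene. These letters were chosen after the sequence was seen, and 8 of 32851 promoters of this length hold them on either strand (0.0244%). The window also holds 2 GC boxes, and none of TGACGTCA, AGATAA or AGGTCA occurs in it.

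Hox genes, which give cells their position along the body axis, rose widely. Of 39 members 38 were on the array and 25 passed the filter, 15 rose and 0 fell, with a median log2 change of 1.07. Hoxa5 went from 4.52 and 4.67 through 9.97 and 10.03 at 72 h to 11.40 and 11.29 (at least 51.2-fold, limma adjusted p = 5.58e-08). In the Hoxb cluster, Hoxb4 went from 5.05 and 4.48 to 9.08 and 8.71 (at least 9.39-fold), Hoxb5 from 4.80 and 4.65 to 8.31 and 9.32 (at least 8.88-fold), Hoxb2 from 4.50 and 4.78 to 7.99 and 8.42 (at least 5.79-fold) and Hoxb7 from 4.91 and 4.89 to 7.67 and 8.01 (at least 4.51-fold). Hoxc9 went from 5.40 and 5.47 through 7.38 and 6.92 to 8.61 and 8.45 (at least 7.26-fold). Each of these 6 genes was undetected on both 0 h arrays, as were 18 of the 25. Such genes passed the filter on low values through a later stage or the control cells. They had little room to fall, and the list's median depends in part on their background values. By cluster, 4 of 7 tested Hoxa genes, 6 of 8 Hoxb genes, 3 of 5 Hoxc genes and 2 of 5 Hoxd genes rose. By position, and against rises in 12.1% of all tested genes, 13 of 16 tested Hox genes numbered 1 to 8 rose. So did 2 of 9 numbered 9 to 13, Hoxc9 and Hoxc13. The others that rose were Hoxa2, Hoxa4, Hoxa7, Hoxb3, Hoxb6, Hoxc6, Hoxd4 and Hoxd8, so that every cluster is represented. Among these, Hoxb3, Hoxb6, Hoxc13 and Hoxd4 each lost the call in at least 1 of the fits that left out 1 array. No test was run between clusters or positions. The count of rises was 12 to 17 over the fits that left out 1 array.

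**Figure D3:**
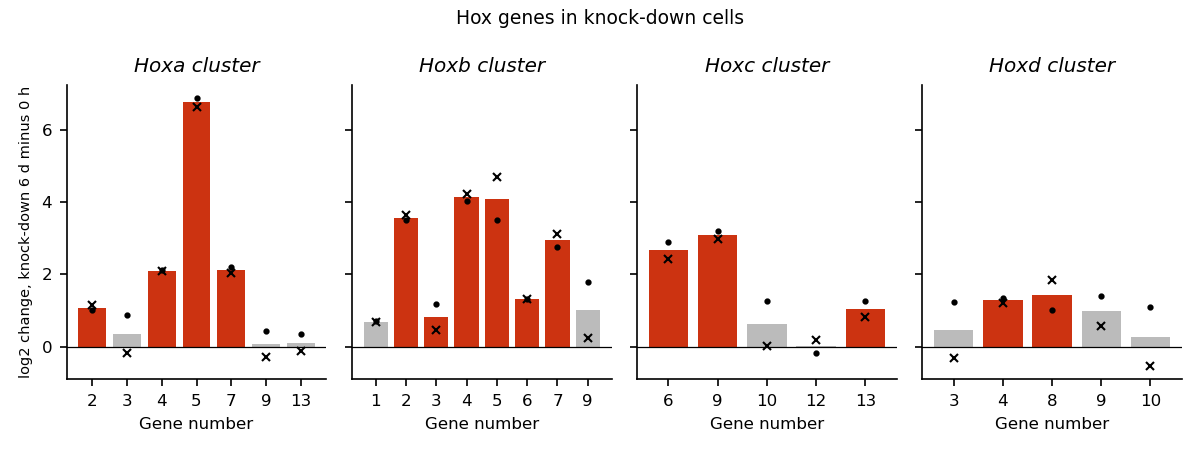
The log2 change from 0 h to 6 d in knock-down cells for each Hox gene tested, by cluster and gene number. Bars are the fitted change, red where the adjusted p is under 0.05 and grey otherwise, dots the change between the replicate 1 arrays and crosses that between the replicate 2 arrays. Hoxa5, at 6.75, is the tallest bar, and grey bars are the more frequent among numbers 9 to 13.

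Genes of the stem cell state fell, though not all of them. All 29 members were on the array and 28 passed the filter, of which 15 fell and 2 rose, with a median log2 change of -1.14. Utf1, a chromatin factor of undifferentiated cells, went from 10.37 and 10.24 to 6.33 and 7.92 (log2 change -3.18, SE 0.41, limma adjusted p = 2.91e-04). Gdf3, a ligand related to Nodal, went from 12.97 and 12.67 to 9.76 and 9.86 (log2 change -3.01, SE 0.24, adjusted p = 9.49e-06). The nuclear receptor gene Nr5a2 went from 10.34 and 10.68 to 7.31 and 8.06 (log2 change -2.83, SE 0.26), and 1 of its 3 probes had the opposite sign. Fgf4, the growth factor that stem cells secrete, dropped below detection by the end and fell at least 3.99-fold. Lin28b, which blocks the maturation of let-7 microRNAs, went from 7.92 and 7.62 to 5.97 and 5.15 (log2 change -2.21, SE 0.32). Gdf3 and Dnmt3l had closely matched arrays at the end, whereas the 6 d arrays of Utf1 lay far apart, with replicate 1 the lower. The list's median was -1.39 between the replicate 1 arrays and -0.56 between the replicate 2 arrays, and 20 members fell without knock-down 6 d replicate 2 against 9 without knock-down 6 d replicate 1. The 2 rises, Klf4 and Tbx3, are named because so few passed and were picked after their values were seen: Klf4 went from 8.11 and 8.03 to 9.41 and 10.19 (log2 change 1.73, adjusted p = 0.00123) and Tbx3 from 9.56 and 9.69 to 10.77 and 11.18 (log2 change 1.35, adjusted p = 0.00169).

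Enzymes of DNA methylation fell too. Of 8 members 7 were on the array and 5 passed the filter, of which 4 fell and 0 rose, with a median log2 change of -1.81. Besides Dnmt3l, Tet1, which oxidizes methylcytosine, went from 11.67 and 12.17 to 9.70 and 9.68 (log2 change -2.23, SE 0.33, limma adjusted p = 7.33e-04). Dnmt3b, a de novo methyltransferase, went from 12.64 and 12.91 through 12.42 and 12.27 at 72 h to 10.71 and 11.21 (log2 change -1.81, SE 0.25, adjusted p = 5.03e-04). Most of the Dnmt3b change came after 72 h (-1.38, against -0.43 before). Uhrf1, the partner of maintenance methylation, fell by 1.12, a call lost without 0 h replicate 2 (0.0965) or 6 d replicate 1 (0.0830).

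Among histone demethylases and regulators of the mark that Kdm3a removes, 20 of 22 members were on the array and 18 passed the filter. Of these, 1 rose and 4 fell (27.8% called, against 22.3% of all genes), with a median log2 change of -0.44. Besides Kdm3a, its paralog Jmjd1c went from 6.67 and 6.67 to 5.66 and 5.21 (log2 change -1.24, SE 0.22, limma adjusted p = 0.00205). Kdm6b, which acts on lysine 27 of histone H3, went the other way, from 7.28 and 7.87 to 8.62 and 9.10 (log2 change 1.29, SE 0.25, adjusted p = 0.00430). Trim28, a corepressor that recruits lysine 9 methylation, went from 13.27 and 13.13 to 12.26 and 12.44 (-0.85), a call lost without 0 h replicate 1 (0.0894), 0 h replicate 2 (0.0540) or 6 d replicate 1 (0.0603). Kdm5a, a lysine 4 demethylase, had 6 d arrays of 6.82 and 5.30, a second probe of opposite sign, and a call lost without 0 h replicate 1 (0.0649), 0 h replicate 2 (0.0685) or 6 d replicate 2 (0.0716).

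Secreted signals and their antagonists went both ways. Of 30 members 27 were on the array and 21 passed the filter. Of these, 5 rose and 4 fell (42.9% called, against 22.3% of all genes), with a median log2 change of 0.06. Bmp4, given above, and Nodal fell, and Nodal, a ligand of the TGF-beta family, went from 12.20 and 11.86 to 10.87 and 10.37 (log2 change -1.41, SE 0.28, limma adjusted p = 0.00434). Spry4, a feedback inhibitor of FGF signalling, went from 8.92 and 9.23 to 5.40 and 6.93 (log2 change -2.91, SE 0.38). Fgf10, a growth factor, rose at least 15.4-fold, from 5.38 and 5.00 to 9.58 and 9.66. The BMP antagonist gene Nog went from 5.10 and 5.81 through 5.73 and 5.75 at 72 h to 7.62 and 7.29 (log2 change 2.01, SE 0.28), and Wnt5a, a ligand of non-canonical Wnt signalling, rose at least 4.90-fold. Thus the Bmp4 ligand fell while Nog and Bmper, which bind such ligands, rose, each past its own test. The remaining calls were the rises of Bmp6 (0.85) and Lefty1 (1.36) and the fall of Dusp6 (-1.23), a phosphatase that restrains ERK signalling, all named after their values were seen. All 3 lost the call without knock-down 0 h replicate 2 (adjusted p of 0.0628, 0.0837 and 0.0879), when the list had 3 rises and 3 falls.

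The genes of the cell division machinery were lower at 6 d. Of 33 members 31 were on the array and 29 passed the filter. Of these, 10 fell and 0 rose (34.5% called, against 22.3% of all genes). All 29 fitted changes were below 0, with a median of -0.66. Ccne1, the cyclin of entry into S phase, went from 9.68 and 9.46 to 8.01 and 8.71 (log2 change -1.21, SE 0.25, limma adjusted p = 0.00496). Cdc20, an activator of the anaphase-promoting complex, went from 12.60 and 12.70 to 11.39 and 11.93 (log2 change -0.99, SE 0.23). Bub1b, a spindle checkpoint kinase, went from 10.86 and 10.70 to 9.04 and 10.15, and Mcm7, a subunit of the replicative helicase, from 9.97 and 10.24 to 8.99 and 9.36. Replicate 1 was the lower 6 d array in each of these 4 genes. The call of Ccne1 held when any of the 4 arrays was left out, but that of Cdc20 was lost without 0 h replicate 2 (0.0608) or 6 d replicate 1 (0.0528), Bub1b without 0 h replicate 1 (0.0969), 0 h replicate 2 (0.0642) or 6 d replicate 1 (0.103) and Mcm7 without 0 h replicate 2 (0.0752). Mcm5 (-0.99) and Mcm6 (-0.98), other helicase subunits, were lost without any of 3 arrays, with adjusted p up to 0.127 and 0.282, and 1 of 4 Mcm6 probes had the opposite sign. The number of falls was 4 without knock-down 0 h replicate 1, 2 without knock-down 0 h replicate 2, 3 without knock-down 6 d replicate 1 and 21 without knock-down 6 d replicate 2, and was 16 without the 3 arrays that resemble each other. With median centring, 1 member fell, Ccne1 (-0.93, adjusted p = 0.0401), and the list's median was -0.39 against 0.15 over all genes. The median was -0.91 between the replicate 1 arrays and -0.48 between the replicate 2 arrays.

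Among D-type cyclins and cell cycle inhibitors more genes rose than fell. All 18 members were on the array and 16 passed the filter, of which 8 rose and 2 fell, with a median log2 change of 0.53. Ccnd2, a D-type cyclin, went from 5.53 and 6.25 to 11.84 and 11.03 (log2 change 5.54, SE 0.41, limma adjusted p = 6.44e-06). Ccnd1, a second D-type cyclin, went from 8.40 and 7.72 to 9.55 and 9.54 (log2 change 1.49, SE 0.27, adjusted p = 0.00260). Cdkn1a, the p21 inhibitor of cyclin-dependent kinases, went from 9.35 and 9.65 through 10.42 and 10.30 at 72 h to 12.00 and 11.90 (log2 change 2.45, SE 0.23, adjusted p = 2.90e-05). Activating and inhibiting partners of the same kinases thus both passed as rises. The inhibitor gene Cdkn2c rose at least 2.03-fold, and Mycl, a Myc family factor, went from 5.81 and 5.39 to 7.87 and 8.00 (log2 change 2.34, SE 0.23). Cdkn2a had 0 h arrays of 6.59 and 5.19 and 6 d arrays of 8.60 and 7.15, which nearly met, and its call was lost without 0 h replicate 2 (0.103) or 6 d replicate 1 (0.0805). The 2 members that fell, named for that reason, were Rbl1, which encodes the pocket protein p107 (-1.46), and Cdkn1c, or p57 (-0.93). The call of Cdkn1c was lost without 0 h replicate 2 (0.289), 6 d replicate 1 (0.0852) or 6 d replicate 2 (0.124). Cdkn1a also belongs to the p53 target list, where 19 of 20 members were on the array and 17 passed the filter, of which 3 rose and 0 fell (17.6% called, against 22.3% of all genes), with a median log2 change of 0.40 and 2 to 7 rises over the fits that left out 1 array. The others were Apaf1, a part of the apoptosome, from 9.36 and 9.50 to 10.89 and 10.80 (log2 change 1.42, SE 0.22), and the sestrin gene Sesn1 (1.08), lost without 0 h replicate 2 (0.0738).

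Actin-binding and contractile genes rose in part. Of 20 members 19 were on the array and 15 passed the filter, of which 7 rose and 0 fell, with a median log2 change of 0.70. Acta2 stood far above the rest in its change and went from 5.00 and 5.52 through 6.77 and 6.11 at 72 h to 11.51 and 11.25, with a change of 4.94 after 72 h. Tpm1, a tropomyosin, went from 9.50 and 9.65 to 12.33 and 11.83 (log2 change 2.50, SE 0.29, limma adjusted p = 1.57e-04), and Tpm4 from 9.98 and 10.14 to 11.98 and 12.05 (log2 change 1.95, SE 0.25). Zyx, or zyxin, a protein of focal adhesions, went from 9.54 and 9.85 to 12.33 and 11.74 (log2 change 2.34, SE 0.28), and Cnn2, a calponin, rose at least 3.05-fold. Cald1, or caldesmon (1.48), lost its call without 0 h replicate 2 (0.0629).

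The S100 proteins, annexins and galectins, small calcium- or sugar-binding proteins of the cytoplasm and membrane, rose in part. Of 16 members, all tested, 9 rose and 0 fell, with a median log2 change of 0.88. The rises numbered 5 without knock-down 0 h replicate 2 and 7 to 8 in the other fits that left out 1 array. Anxa5, which binds membrane phosphatidylserine, went from 8.82 and 8.84 to 11.40 and 11.81 (log2 change 2.77, SE 0.26, limma adjusted p = 2.88e-05). Anxa2, a cell surface partner of plasminogen activator, went from 11.90 and 11.87 through 11.95 and 12.12 at 72 h to 13.75 and 13.66 (log2 change over the course 1.82, SE 0.23). S100a13 went from 6.08 and 5.54 to 7.36 and 8.11 (1.92), S100a11 from 11.76 and 11.70 to 13.29 and 13.07 (1.45), and Anxa1 rose at least 1.87-fold. S100a1 rose at least 2.31-fold, a call lost without 0 h replicate 2 (0.0572).

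Cell junction and integrin genes changed little as a list. Of 21 members 19 were on the array and 16 passed the filter. Of these, 0 rose and 2 fell (12.5% called, against 22.3% of all genes), with a median log2 change of 0.00. Cdh3, or P-cadherin, went from 8.79 and 8.69 to 6.93 and 5.79 (log2 change -2.38, SE 0.39, limma adjusted p = 0.00150). Pkp2, a plaque protein of desmosomes, went from 9.19 and 9.35 to 8.45 and 7.94 (-1.07), a call lost without 0 h replicate 1 (0.0540), 0 h replicate 2 (0.0893) or 6 d replicate 2 (0.0758). The replicates disagreed on the list's direction, with a median of 0.31 between the replicate 1 arrays and -0.57 between the replicate 2 arrays, and the falls numbered 1 to 6 over the fits that left out 1 array.

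Imprinted genes, which are expressed from 1 parental copy and act on growth, gave several large rises. Of 20 members 18 were on the array and 14 passed the filter. Of these, 6 rose and 2 fell (57.1% called, against 22.3% of all genes), with a median log2 change of 0.60. Igf2, a fetal growth factor, went from 8.16 and 7.79 to 12.76 and 12.08 (log2 change 4.44, SE 0.26, limma adjusted p = 1.53e-06). Dlk1, a Notch-related membrane protein, went from 7.18 and 7.29 to 12.68 and 10.24 (log2 change 4.22, SE 0.61), with replicate 1 far above replicate 2 at 6 d. Peg3, a zinc finger protein, went from 7.94 and 8.45 to 12.16 and 11.24 (log2 change 3.50, SE 0.32), Ndn, or necdin, from 9.44 and 9.31 to 11.18 and 11.04 (log2 change 1.74, SE 0.20), and Grb10, an adaptor that restrains growth signals, from 8.77 and 8.85 to 10.03 and 10.03 (log2 change 1.22, SE 0.22). Igf2r, the receptor that clears Igf2, passed at 1.55, but was lost without 0 h replicate 1 (0.108), 0 h replicate 2 (0.155) or 6 d replicate 1 (0.259). The 2 that fell, named for that reason, were Cdkn1c, given above, and Mest (-0.72). Mest lost its call in each of the fits that left out 1 array, with limma adjusted p up to 0.145. The list had 0 falls without knock-down 0 h replicate 2, without knock-down 6 d replicate 2, without the 3 arrays that resemble each other and with median centring, and 1 fall in each of the other fits that left out 1 array.

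Among the metabolic lists, 18.8% of tested cholesterol genes, 11.1% of glycolysis and hypoxia genes and 27.8% of lysosome genes passed, against 22.3% of all genes, and the median of the glycolysis list was 0.11 in place of -0.10 with median centring. Of 21 cholesterol genes 16 were on the array and tested, 3 fell and 0 rose, with a median log2 change of -0.60. Sqle, a rate-controlling epoxidase of the pathway, went from 12.56 and 12.48 through 12.20 and 12.55 at 72 h to 11.14 and 11.03 (log2 change over the course -1.43, SE 0.27, limma adjusted p = 0.00293). Msmo1 (-1.08) was lost without 0 h replicate 1 (0.0608) or 0 h replicate 2 (0.0665), and Dhcr7 (-1.22) without 0 h replicate 1 (0.0968), 0 h replicate 2 (0.162), 6 d replicate 1 (0.0843) or 6 d replicate 2 (0.108). Of 23 glycolysis and hypoxia genes 20 were on the array and 18 passed the filter, 1 rose and 1 fell, with a median log2 change of -0.10. Pdk1, which restrains pyruvate entry into mitochondria, went from 9.49 and 9.90 to 6.93 and 8.01 (log2 change -2.23, SE 0.40, adjusted p = 0.00230), and Vegfa passed at 0.93 but was lost without 0 h replicate 1 (0.111), 0 h replicate 2 (0.147) or 6 d replicate 1 (0.212). Of 21 lysosome genes 20 were on the array and 18 passed the filter, 5 rose and 0 fell, with a median log2 change of 0.60. Lgmn, an asparaginyl protease, went from 10.38 and 10.22 to 12.76 and 11.60 (log2 change 1.88, SE 0.37), and Lamp2, a lysosomal membrane protein, from 10.09 and 10.16 to 12.30 and 11.63 (log2 change 1.84, SE 0.28), with 1 of 7 Lamp2 probes of opposite sign. The protease Ctsb (1.41) was lost without 0 h replicate 2 (0.0580), and the rises of Gusb and Glb1 did not hold in every such fit either (adjusted p up to 0.234 and 0.0866); 2 of 3 Glb1 probes had the opposite sign. The lysosome list had 2 to 9 rises over the fits that left out 1 array.

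Genes known to respond to cAMP rose in part over the whole course, of which only the last 3 days included cAMP. Of 18 members 17 were on the array and 12 passed the filter. Of these, 5 rose and 0 fell (41.7% called, against 22.3% of all genes), with a median log2 change of 0.82. Jun, a component of the AP-1 factor, was undetected at 0 h. It went from 5.12 and 5.16 through 7.37 and 7.09 at 72 h to 7.72 and 7.77 (at least 4.21-fold, limma adjusted p = 3.13e-05). After 72 h, when cAMP was present, Jun changed by 0.51 (limma adjusted p = 0.255). Atf3, a stress-induced factor, went from 6.62 and 7.04 through 7.78 and 7.36 at 72 h to 8.10 and 8.58 (log2 change 1.51, SE 0.32). Its call was lost without 0 h replicate 1 (0.0544). The change of Atf3 was 0.74 before 72 h and 0.77 after it (limma adjusted p of 0.139 and 0.200). Junb, Dusp1 and Pde4d had 72 h means below those of 0 h and were higher at 6 d, with changes after 72 h of 1.14, 1.25 and 0.95. Over the whole course they passed at 0.85, 0.88 and 0.82. Their calls were lost without 0 h replicate 1 (0.285), 6 d replicate 1 (0.0784) or 6 d replicate 2 (0.0941) for Junb, without 0 h replicate 1 (0.166), 0 h replicate 2 (0.119) or 6 d replicate 1 (0.233) for Dusp1 and without 0 h replicate 2 (0.123) for Pde4d, and 2 of 3 Pde4d probes had the opposite sign. Averaging the probes of each gene turned the Pde4d change to -0.16.

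**Figure D4:**
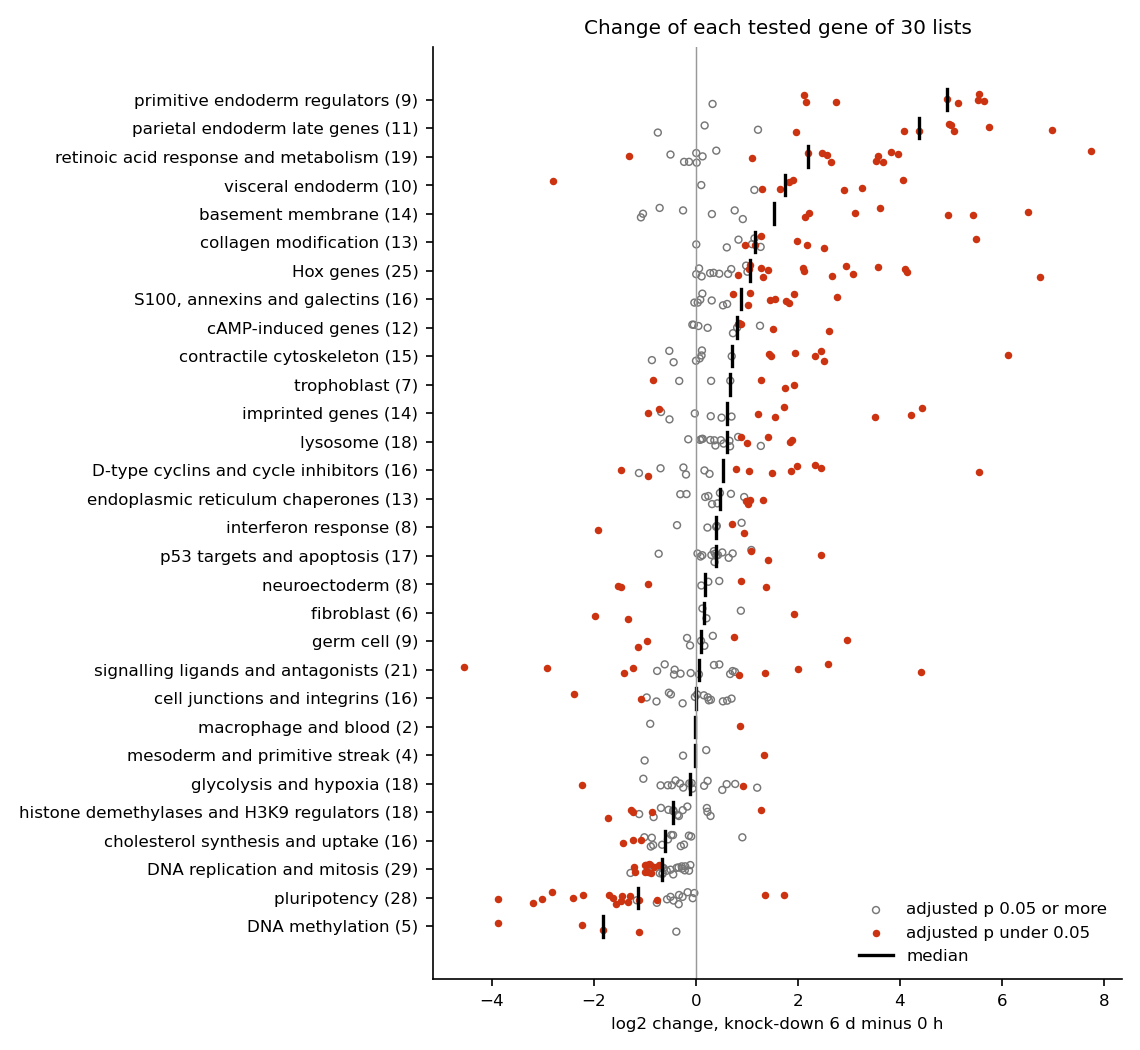
The log2 change from 0 h to 6 d in knock-down cells of every tested gene of 30 lists, with the number of tested genes in parentheses. Filled points have an adjusted p under 0.05, open points do not, and black ticks are list medians. Primitive endoderm regulators have the highest median of fitted changes, 4.93, and DNA methylation genes the lowest, -1.81. At 0 h 4 of the 9 tested primitive endoderm regulators were undetected, so their median depends in part on background.

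Markers of other cell types were followed as a check on what else the culture could hold. They are given as values, and their part in the results was not tested. Among tested genes, 44.4% of germ cell, 62.5% of neuroectoderm, 57.1% of trophoblast and 50% of fibroblast genes were called. For mesoderm it was 25%, for macrophage and blood 50% and for interferon response 37.5%. Over all genes it was 22.3%, and each of these lists had few tested genes. Of 18 germ cell genes 17 were on the array and 9 passed the filter, 2 rose and 2 fell, and their summed linear intensity was 1214 to 1345 at 0 h and 3021 to 3831 at 6 d. Kit, the stem cell factor receptor that other tissues also use, went from 8.89 and 8.06 to 11.69 and 11.21 (log2 change 2.97, SE 0.36, limma adjusted p = 2.02e-04), and Dnd1, an RNA-binding protein of germ cells, from 9.15 and 9.12 to 7.65 and 8.35 (-1.14). The helicase gene Ddx4, undetected at 0 h, rose at least 1.25-fold, from 5.15 and 5.34 to 5.92 and 6.07. Ddx4 passed the filter only through its knock-down 6 d arrays, so its rise is in part set by the filter. Its call was lost without 0 h replicate 1 (0.118), 0 h replicate 2 (0.0514) or 6 d replicate 2 (0.0541). That of Tex14 (-0.96) was lost without 0 h replicate 1 (0.186) or 6 d replicate 2 (0.103). Of 16 neuroectoderm genes 14 were on the array and 8 passed the filter, 2 rose and 3 fell, with summed intensities of 2061 to 2067 at 0 h and 1230 to 1680 at 6 d; Map2 (-1.53), Elavl3 (-1.48), Stmn2 (-0.93), Gap43 (1.39) and Zic1 (0.88) each lost the call in at least 1 fit without an array, with adjusted p up to 0.0740, 0.0511, 0.0722, 0.156 and 0.113.

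Of 11 trophoblast genes 9 were on the array and 7 passed the filter, 3 rose and 1 fell, with summed intensities of 1884 to 1933 at 0 h and 1861 to 2655 at 6 d. Gata3, a zinc finger factor of trophoblast and other tissues, rose at least 2.23-fold, Dlx3 at least 1.88-fold, and Ets2 went from 8.75 and 8.69 to 10.14 and 9.84 (log2 change 1.27, SE 0.21, limma adjusted p = 0.00131). Tfap2c fell by 0.84, a call lost without 0 h replicate 2 (0.130) or 6 d replicate 2 (0.0705). All 12 fibroblast genes were on the array and 6 passed the filter, 1 rose and 2 fell, with summed intensities of 300 to 406 at 0 h and 319 to 423 at 6 d. The matrix proteoglycan gene Dcn rose at least 2.18-fold, while Col1a2, a chain of collagen I, fell at least 1.44-fold and Thy1 at least 2.38-fold, both undetected at 6 d. Of 12 mesoderm genes 11 were on the array and 4 passed the filter. Of these, 1, Gsc, rose at least 1.45-fold (25% called, against 22.3% of all genes). The list's summed intensities were 219 to 275 at 0 h and 201 to 301 at 6 d. Of 11 macrophage and blood genes 9 were on the array and 2 passed the filter and 1, Cd14, rose (0.87), with sums of 93 to 154 and 106 to 131, a call lost without 0 h replicate 2 (0.136) or 6 d replicate 2 (0.0674). Of 14 interferon response genes 12 were on the array and 8 passed the filter, with sums of 1826 to 2047 and 2067 to 3054. Irf1 (0.71) and Oasl2 (at least 1.22-fold) rose, and Bst2, a membrane protein that tethers viruses, went from 6.95 and 7.47 to 5.49 and 5.10 (-1.92). Both rises were lost without any 1 of 3 arrays (adjusted p up to 0.192 and 0.0971).

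Control cells given the same treatment showed a change of much the same extent. In them 2579 genes passed (22.2%), of which 1417 rose (12.2%) and 1162 fell (10%). Rises common to both cell lines numbered 1040, which is 73.9% of the knock-down rises and 73.4% of the control rises, and common falls 785, or 66.1% and 67.6%. Among 3348 genes called in either line 3196 had the same sign in both (95.5%), and a line through their changes had a slope of 0.915. Across all 11621 genes, which are not independent replicates, the changes correlated at 0.874. The changes of the 2 lines share no array, but knock-down 6 d replicate 2 and control 6 d replicate 2 correlated with each other at 0.984, above the 0.949 of the knock-down 6 d replicates. Of the 769 genes called in knock-down cells and not in control cells, 705 had the same sign in control cells.

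The test of the difference itself, the knock-down change minus the control change, called 0 of 11621 genes in limma (0%), and 668 genes had an unadjusted p under 0.05 (5.75%). The smallest adjusted p was 0.0902, shared by Gjb2 and Ldc1. Gjb2, a gap junction connexin, went from 5.39 and 5.21 to 6.07 and 5.93 in knock-down cells and from 7.07 and 7.25 to 4.67 and 5.41 in control cells. It fell in the control (-2.12, adjusted p = 2.43e-04) and had a change of 0.70 in the knock-down (adjusted p = 0.0842), a difference of 2.82 (SE 0.38). Gjb2 was undetected on both knock-down 0 h arrays and both control 6 d arrays, so these changes and their difference are set against background and have no exact size. Without control 6 d replicate 2 that difference was 3.19 and passed, with an adjusted p of 0.0365. Ldc1, a leucine decarboxylase gene, was called in both lines with opposite signs, 1.26 in the knock-down and -0.91 in the control. Of all arrays only the 2 knock-down 6 d arrays detected it, so the control change lies within background. Ldc1 passed the filter on low values through those 2 arrays alone, so its rise is in part set by the filter. It went from 4.52 and 4.72 to 6.06 and 5.71 in knock-down cells and from 5.50 and 5.60 to 4.57 and 4.71 in control cells. One other gene, the olfactory receptor Olfr961, was called in opposite directions, -0.76 and 0.69, and is named because there were only 2 such genes; no group detected it on both arrays.

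Gata6 and Tent5a, also among the genes of smallest p, were undetected on both control 0 h arrays, so their control changes and differences are set against background and have no exact size. The level of Gata6 was 5.17 and 5.32 at 0 h and 12.28 and 12.45 at 6 d in control cells, a change of 7.12 against 5.14 in the knock-down (difference -1.98, SE 0.34, limma adjusted p = 0.322). The knock-down arrays lay above the control arrays at 0 h. At 6 d they were 11.96 and 12.42, against 12.28 and 12.45 in the control. Tent5a, a nucleotidyltransferase that extends RNA tails, went from 6.55 and 6.13 to 8.55 and 8.43 in the knock-down and from 5.37 and 5.11 to 9.36 and 9.25 in the control (difference -1.91, SE 0.30, adjusted p = 0.208). Crabp2 went from 6.18 and 5.90 to 7.10 and 6.95 in control cells, a change of 0.98 against 2.65 in the knock-down (difference 1.67, SE 0.32, adjusted p = 0.503). Counts of the lists in control cells included 8 rises of 11 for late parietal endoderm genes, 14 falls and 2 rises of 28 for stem cell genes, and 14 rises of 25 for Hox genes. They also included 5 falls of 29 for cell division genes against 10 in the knock-down, 10 rises of 13 for collagen modification genes against 7, and 0 falls of 14 for imprinted genes against 2, and no difference between the lines in a list's count was tested.

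**Figure D5:**
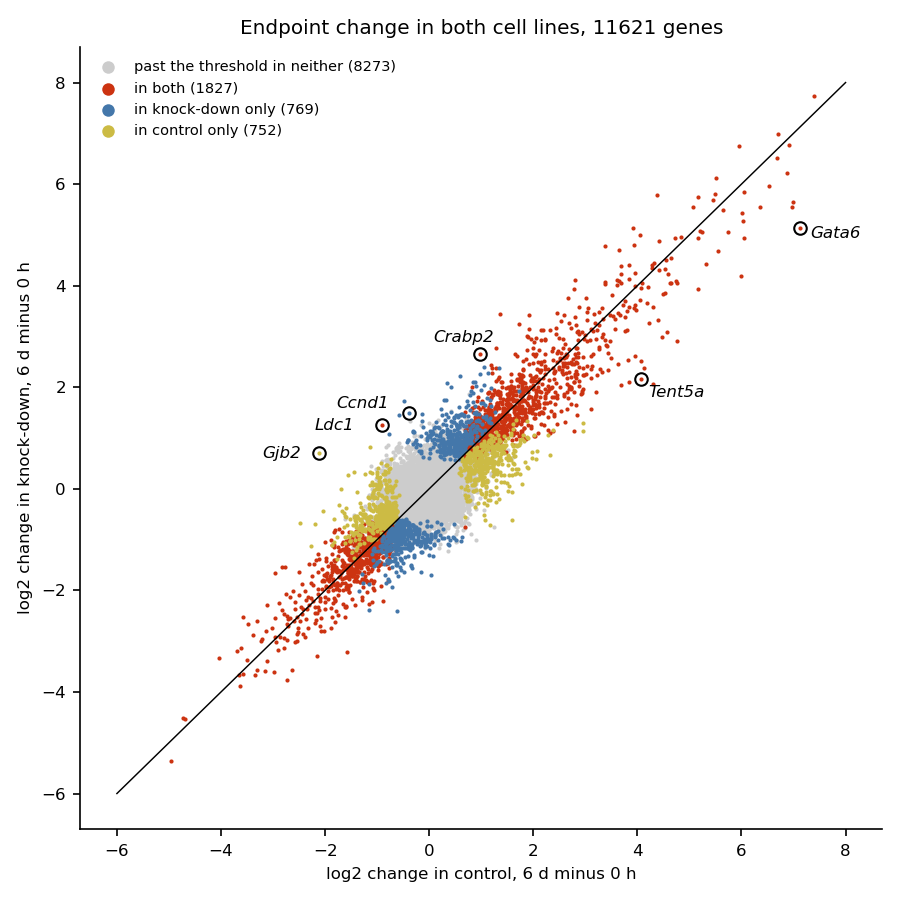
The log2 change from 0 h to 6 d in knock-down cells (vertical) against that in control cells (horizontal) for 11621 genes, coloured by where the change had an adjusted p under 0.05, with the line of equal change. The points follow the line. The circled genes are named in the text and lie off the line, with Gata6 at 7.12 and 5.14, none of which passed the test of the difference. The distance of Gata6, Tent5a, Gjb2 and Ldc1 from the line is set in part by background, since each was undetected in at least 1 group.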

How the data were processed

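RNA from F9 cells was hybridised to Illumina MouseWG-6 v2 bead arrays as biotin-labelled cRNA, per the labels' protocols. The authors deposited probe intensities without normalization, each with a detection p-value, per the file headers, and a table of normalized intensities, whose sorted values lay within 0.700 intensity units of quantile normalization. The labels and headers used here name no software for the bead summaries. Here limma 3.58.1 in R 4.3.3 corrected the background from the detection p-values (nec, offset 16), normalized by quantiles and took log2. Probes were kept where 2 or more of the 12 arrays had a detection p under 0.05 (21525 of 45281). Of all probes, 34885 carry 1 gene symbol in GEO's platform annotation, 18 several and 10378 none, and the brightest probe stood for each of 11621 genes. Group means were fitted over all 12 arrays (6 groups of 2), with Benjamini-Hochberg adjustment over all genes. A bound for an undetected gene is the detected group's mean against, on each array of the other group, the higher of its value and the dimmest detected signal. The text names Kdm3a, the 15 largest called rises and 15 largest called falls, up to 6 called members with the largest change in each of 30 lists (557 genes, 517 on the array, 414 tested), and the 5 genes with the smallest p for the difference between lines. Every other gene name was picked after its values were seen. The members and lists were chosen with earlier results of these data known, so lists have counts and medians and no test. The Cyp26a1 promoter lies outside the rule for printing promoters and was added later. Alternatives tried were median centring, the authors' table, an offset of 50, other filters, the mean of probes, fits on fewer arrays, and replicate and array blocks.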

Additional observations from a re-analysis of the deposited data

Results flagged for a closer look

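Among the 160 genes named by the rule, 4 had opposite courses in the 2 lines: every knock-down array moved one way over the course and every control array the other. The share of all 11621 genes with such courses was not counted. In the knock-down alone, the 6 d and 0 h arrays did not overlap in 54.7% of them. Gjb2 and Ldc1 were themselves named for the smallest p of the difference. Olfr961, named outside the rule, also had opposite courses. The test of the difference was run for each, and none of the 4 passed in limma. In log2 units Gjb2 differed by 2.82 (SE 0.38, adjusted p = 0.0902), and its knock-down arrays at 6 d lay above those at 0 h while its control arrays lay below. Ldc1 differed by 2.17 (SE 0.30, adjusted p = 0.0902). Ccnd1, the D-type cyclin, differed by 1.87 (SE 0.38, adjusted p = 0.574), with control values of 9.99 and 10.00 at 0 h and 9.41 and 9.81 at 6 d. Ddx4 differed by 0.94 (SE 0.28, adjusted p = 0.673), and its control arrays went from 5.58 and 5.53 to 5.34 and 5.39. Ddx4 and Ldc1 were detected on the 2 knock-down 6 d arrays alone. They passed the filter on low values only through that group, where they were high, so their courses are in part set by the filter. Gjb2 was undetected at 0 h in the knock-down and at 6 d in the control. The differences of Ddx4, Ldc1 and Gjb2 are therefore set against background, while Ccnd1 was detected on all 8 arrays.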

How the results depend on the processing

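Of the settings tried, fitting the 4 knock-down arrays alone moved the count most, from 2596 to 1059 (679 rises and 380 falls). There 118 of the 159 named genes that had passed kept their call. That fit has fewer arrays and takes the spread from the compared groups alone, whereas the main fit pools it over 6 groups. Replicates correlated at 0.992 (control) and 0.983 (knock-down) at 72 h, against 0.949 for the knock-down at 6 d. The pooled spread can therefore be smaller than that of the arrays compared. Over the fits that left out 1 array, the knock-down count ran from 1562 to 2889, the control count from 1428 to 1952 and the count for the difference from 0 to 1. Quantile against median centring left the count at 2228 but changed its split, as given above. The authors' normalized table gave 2779 genes, an offset of 50 2815, no filter on dim probes 2500, a stricter filter 2680 and the mean of each gene's probes 2486. Pde4d was the 1 named gene whose direction reversed, to -0.16 with the mean of probes (limma adjusted p = 0.687), where its 3 probes disagree. With the replicate block the count was 2973 for the knock-down, 2940 for the control and 0 for the difference, and all 159 named genes kept their call. Knock-down 0 h and 6 d arrays of the same number deviated together (correlation 0.264), but the labels tie the numbers to no shared batch or day. Blocking the 3 arrays that resemble each other, or leaving them out, both chosen after seeing the data, gave 3549 and 2939 genes, and leaving them out ended the call of 14 of the genes named by the rule (Cd14, Ddx4, Dhcr7, Gap43, Irf1, Kdm5a, Oasl2, Pde4d, Pkp2, S100a1, Sesn1, Tex14, Tfap2c and Zic1) and of 6 named outside it (Bmp6, Cdkn1c, Hoxb6, Hoxc13, Lefty1 and Mest). Slide as a block was not run, since the headers give no slide. Kdm3a passed under every setting run, with adjusted p from 2.61e-04 to 0.0401. With 2 arrays a group, the number of arrays limits the precision, and genes near background have bounds only.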
